A study of Mus musculus with 13 samples.

Results

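The genes described are the constant genes of the gamma and delta chains of the T cell receptor, Trdc for delta and Tcrg-C1, Tcrg-C2 and Tcrg-C4 for gamma, read against the constant genes of the alpha and beta chains, Trac, Trbc1 and Trbc2. They were taken by symbol, with earlier results of these data known, and all 7 were found among the 56941 rows of the deposited gene count table. RNA was sequenced from mouse Th17 cells, the helper T cells that make IL-17A. Splenic naive CD4+ T cells were activated and kept in Th17-polarizing conditions for 72 hours, in both genotypes. The libraries labelled KO came from Chaf1bfl/fl;Il17fCre+ mice and those labelled WT from Chaf1bWT mice, with 3 libraries of each. Chaf1b is a subunit gene of chromatin assembly factor 1, which places histones on newly replicated DNA, and the study asked what it does in Th17 cells. Cre is driven by Il17f in the KO mice, so recombination is limited to cells that have switched that locus on. The WT label does not say whether those mice carried Cre, and no label gives ages. The libraries are labelled biological replicates but are not tied to single animals, so a p-value measures only how these libraries vary. A further 7 of the 13 samples, from chromatin assays, were not analysed here.

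A T cell carries either an alpha-beta or a gamma-delta receptor, each built of chains with a variable and a constant part. The variable part is joined from V, J and, in beta and delta chains, D segments by DNA recombination in the thymus, and the joined part is spliced to the constant gene downstream. In the mouse the delta locus lies inside the alpha locus, so that joining an alpha chain deletes the delta genes of that chromosome. The gamma locus is a row of cassettes, each with its own V and J segments and constant gene, and it can stay in place, rearranged or not, in alpha-beta cells. CD4 helper T cells are alpha-beta cells, and receptor constant genes can also be transcribed from loci that have not been joined.

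Total counts were between 35708879 and 38395131 in KO libraries and between 38099488 and 45232055 in WT libraries, and the lowest count of any of the 7 genes in a library was 81. Chaf1b had 572, 567 and 498 counts in the libraries labelled KO and 541, 438 and 525 in WT libraries, and its level did not pass the test (adjusted p = 0.13, edgeR's quasi-likelihood test). Scaled to depth, every KO library lay above every WT library, as for 14.4% of all tested genes. Chaf1b was higher in KO past the threshold in limma-voom (adjusted p = 0.0169) and without WT replicate 1 (adjusted p = 0.0138 in edgeR). Which part of the gene is deleted is not given in the sources used here, so this count does not check the label. Of 6 genes that mark Th17 cells, 3 fell in KO libraries, namely Il17a, Il17f and Rora. With KO replicate 2 left out none of the 3 passed in edgeR (adjusted p between 0.0520 and 0.0712). The list summed to between 297 and 317 CPM (counts in every 1000000 of a library) in KO libraries and between 425 and 595 CPM in WT libraries. An adjusted p under 0.05 was reached by 938 of 14681 tested genes (6.39%), 576 higher in KO (3.92%) and 362 lower (2.47%). With library totals alone as the scale the split was 464 higher and 502 lower. The count was between 295 and 326 without any single KO library, 366 without WT replicate 2 and 2961 without WT replicate 1.

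All 4 gamma and delta constant genes were higher in KO libraries, by between 1.6-fold for Trdc and 2.13-fold for Tcrg-C1. The 3 alpha and beta constant genes had log2 fold changes between -0.09 and 0.03, and none passed. In each of the 4, every KO library lay above every WT library, a separation in that direction that 14.4% of all tested genes had. The median log2 fold change of the 4 genes was 1.03, that of the 3 alpha and beta genes 0.02, and that of all tested genes -0.0064. Because RNA was taken from a whole culture, a different number of cells carrying a transcript and a different amount of it per cell cannot be told apart.

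The single delta constant gene, Trdc (ENSMUSG00000104876.2), encodes the constant part of the delta chain. It had 2398, 2430 and 2399 counts in KO libraries and 1398, 1662 and 2099 in WT libraries. Scaled to depth, this was 68.3, 63.7 and 65.2 CPM in KO libraries, against 34.1, 43.3 and 46.1 CPM in WT libraries. The KO libraries lay close together and the WT libraries were spread more widely, with WT replicate 1 lowest. Trdc averaged 65.7 ± 2.35 CPM in KO and 41.2 ± 6.30 CPM in WT (SD, n = 3 each), a log2 fold change of 0.67 ± 0.10 (SE), with adjusted p = 0.00257 (edgeR, adjusted by Benjamini and Hochberg). The change was smallest, 0.55, without WT replicate 1, and still passed.

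Tcrg-C2 (ENSMUSG00000076752.3), the constant gene with the most gamma counts, had 625, 669 and 682 counts in KO libraries and 373, 327 and 421 in WT libraries. It reached 17.8, 17.5 and 18.5 CPM in KO libraries, against 9.09, 8.52 and 9.25 CPM in WT libraries. Both groups were tight and far apart. The log2 fold change was 1.00 ± 0.09, a 2.00-fold difference, with adjusted p = 1.12e-04 in edgeR's quasi-likelihood test.

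Tcrg-C4 (ENSMUSG00000076757.10), the constant gene of the cassette that also holds Tcrg-V1, had 359, 342 and 355 counts in KO libraries and 193, 159 and 229 in WT libraries. These were 10.2, 8.97 and 9.64 CPM in KO libraries, against 4.70, 4.14 and 5.03 CPM in WT libraries, with no overlap. The log2 fold change was 1.05 ± 0.13, or 2.07-fold, with adjusted p = 8.96e-04 in edgeR's quasi-likelihood test.

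Tcrg-C1 (ENSMUSG00000076749.3), the constant gene of the cassette that holds Tcrg-V4, was the least counted member, with 147, 197 and 145 counts in KO libraries and 87, 90 and 81 in WT libraries. It reached 4.19, 5.16 and 3.94 CPM in KO libraries, against 2.12, 2.35 and 1.78 CPM in WT libraries. KO replicate 2 was the highest library, and the groups did not overlap. The log2 fold change was 1.09 ± 0.19, or 2.13-fold, with adjusted p = 0.00699 in edgeR's quasi-likelihood test. Without KO replicate 2 it was 0.96 and did not pass (adjusted p = 0.0567 in edgeR).

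The constant genes of the gamma locus are near-identical in part, as are Trbc1 and Trbc2, and the headers of 5 libraries set no counting of reads that map to several places, while that of KO replicate 1 does not show it. How reads are split within each of these families is therefore uncertain, and the sums are the safer measure. The gamma sum of Tcrg-C1, Tcrg-C2 and Tcrg-C4 was 32.2, 31.7 and 32.1 CPM in KO libraries, against 15.9, 15.01 and 16.1 CPM in WT libraries. The libraries of each genotype lay close together, and the genotypes far apart.

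**Figure D1:**
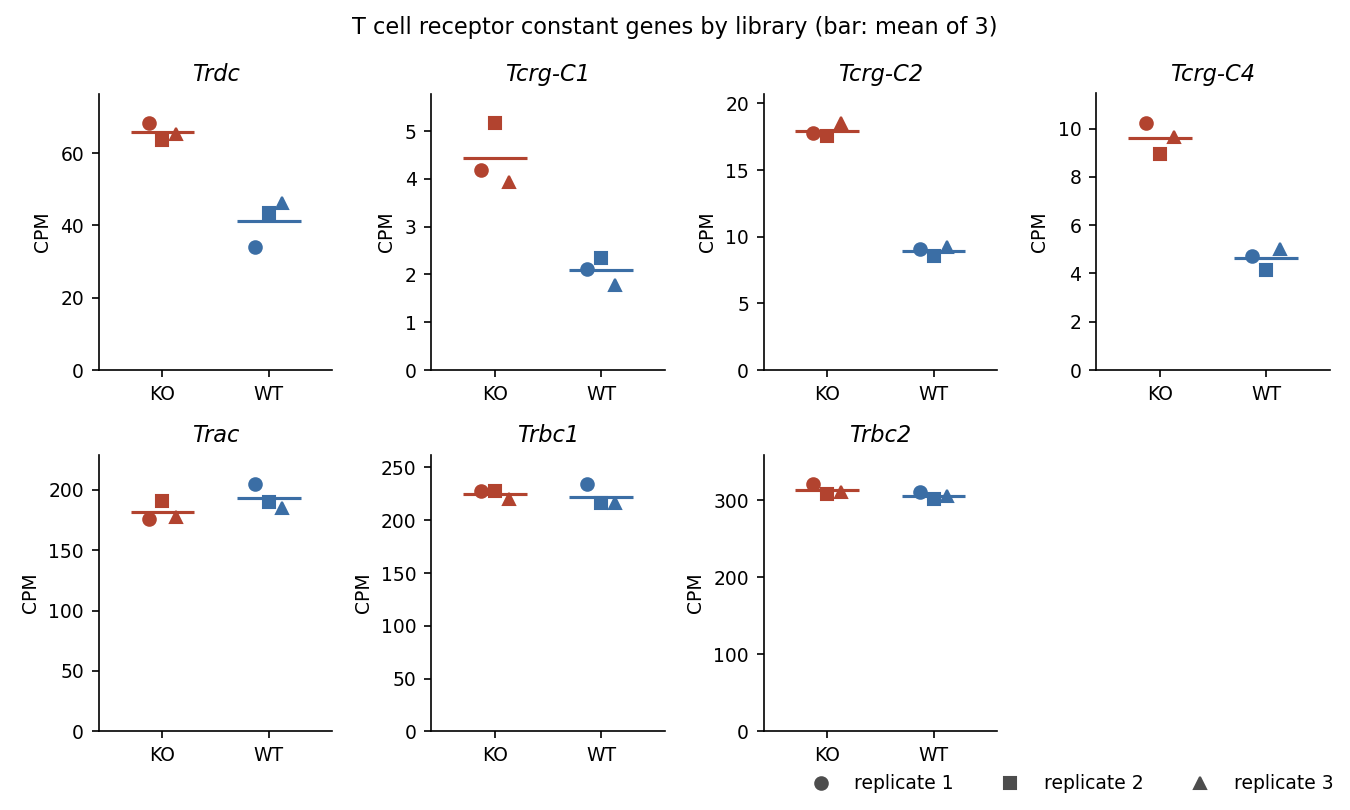
CPM (counts in every 1000000 of a library) in each library for the 7 receptor constant genes, KO left of WT, with points for libraries, shaped by replicate, and lines for the mean of 3. Each of the 4 gamma and delta genes has its 3 KO libraries above its 3 WT libraries, and the groups overlap in Trac, Trbc1 and Trbc2.

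The make-up of the gamma counts was compared next. Tcrg-C2 held 56.1% ± 1.37 of the counts of the 3 gamma genes in KO and 57.2% ± 0.412 in WT, Tcrg-C4 30.0% ± 1.72 in KO and 29.5% ± 1.86 in WT, and Tcrg-C1 13.9% ± 2.15 in KO and 13.3% ± 2.27 in WT (SD, n = 3 each). None of the 3 shares differed beyond the spread in a two-sided exact permutation test (p between 0.4 and 0.8, 0.8 each after adjustment over the 3). The smallest p that 3 against 3 libraries allow is 0.1. The fourth gamma constant gene of the reference, Tcrg-C3, is not among the members and had between 0 and 6 counts per library.

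The alpha and beta constant genes, which encode the chains of the receptor that CD4 cells carry, were far more counted. Trac (ENSMUSG00000076928.6) had 6167, 7260 and 6545 counts in KO libraries and 8381, 7274 and 8419 in WT libraries. Its level was 176, 190 and 178 CPM in KO libraries, against 204, 190 and 185 CPM in WT libraries, and the groups overlapped. The log2 fold change was -0.09, with a 95% interval from -0.21 to 0.03, and did not pass (adjusted p = 0.388, edgeR).

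Trbc1 (ENSMUSG00000076490.8) had 227, 228 and 220 CPM in KO libraries, against 234, 216 and 217 CPM in WT libraries. Its log2 fold change was 0.02, with a 95% interval from -0.09 to 0.13 (adjusted p = 0.880, edgeR). With library totals alone as the scale it was -0.01 (adjusted p = 0.921, edgeR). Trbc2 (ENSMUSG00000076498.3) had 321, 308 and 311 CPM in KO libraries, against 311, 302 and 306 CPM in WT libraries. Its log2 fold change was 0.03, with a 95% interval from -0.06 to 0.13 (adjusted p = 0.728, edgeR). The KO and WT libraries overlapped in all 3 genes, whereas 26.8% of tested genes had no overlap in either direction. The intervals of the 3 genes lie below the lowest bound of any gamma or delta gene, 0.46 for Trdc.

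Ratios taken inside a library do not depend on how libraries are scaled to each other. For every 100 counts of the 3 alpha and beta genes, the 4 gamma and delta genes had 13.9, 13.1 and 13.7 counts in KO libraries, against 6.68, 8.24 and 8.79 counts in WT libraries, a log2 difference of 0.79 or 1.73-fold. Every KO library lay above every WT library. Of 12 such ratios computed, those without overlap had the smallest p that 3 against 3 libraries allow (two-sided exact permutation test, p = 0.1, or 0.171 adjusted over the 12). No ratio can pass 0.05 in this design.

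The comparison was also taken apart by locus. Trdc lies in the alpha locus, and for every 100 counts of Trac it had 38.9, 33.5 and 36.7 counts in KO libraries, against 16.7, 22.8 and 24.9 in WT libraries (1.71-fold, p = 0.1, exact permutation test). For every 100 counts of the beta genes Trbc1 and Trbc2, the 3 gamma genes had 5.88, 5.91 and 6.05 counts in KO libraries, against 2.92, 2.90 and 3.07 in WT libraries (2.01-fold, p = 0.1, exact permutation test). Without Trdc the ratio of gamma to alpha and beta counts had a log2 difference of 1.03. The WT libraries were tight in the gamma ratio and spread in the delta ratio, where WT replicate 1 was lowest.

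The gamma and delta changes were not of exactly the same size in each library. For every 100 counts of Trdc the 3 gamma genes had 47.2, 49.7 and 49.3 counts in KO libraries, against 46.7, 34.7 and 34.8 in WT libraries. WT replicate 1 lay next to the KO libraries in this ratio, and the other WT libraries lay below (p = 0.1, exact permutation test).

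Cd3e, a signalling chain that both kinds of receptor need at the cell surface, served as a further yardstick. For every 100 Cd3e counts Trdc had 87.2, 86.9 and 89.9 counts in KO libraries, against 39.6, 57.7 and 62.7 in WT libraries, and the 3 gamma genes had 41.1, 43.2 and 44.3 in KO libraries, against 18.5, 20.01 and 21.8 in WT libraries. The 3 alpha and beta genes had 924, 991 and 978 counts per 100 Cd3e counts in KO libraries, against 869, 943 and 961 in WT libraries, and overlapped (p = 0.4, exact permutation test). The gamma and delta genes thus stood higher in KO against the signalling chain too, and the alpha and beta genes did not separate the genotypes.

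**Figure D2:**
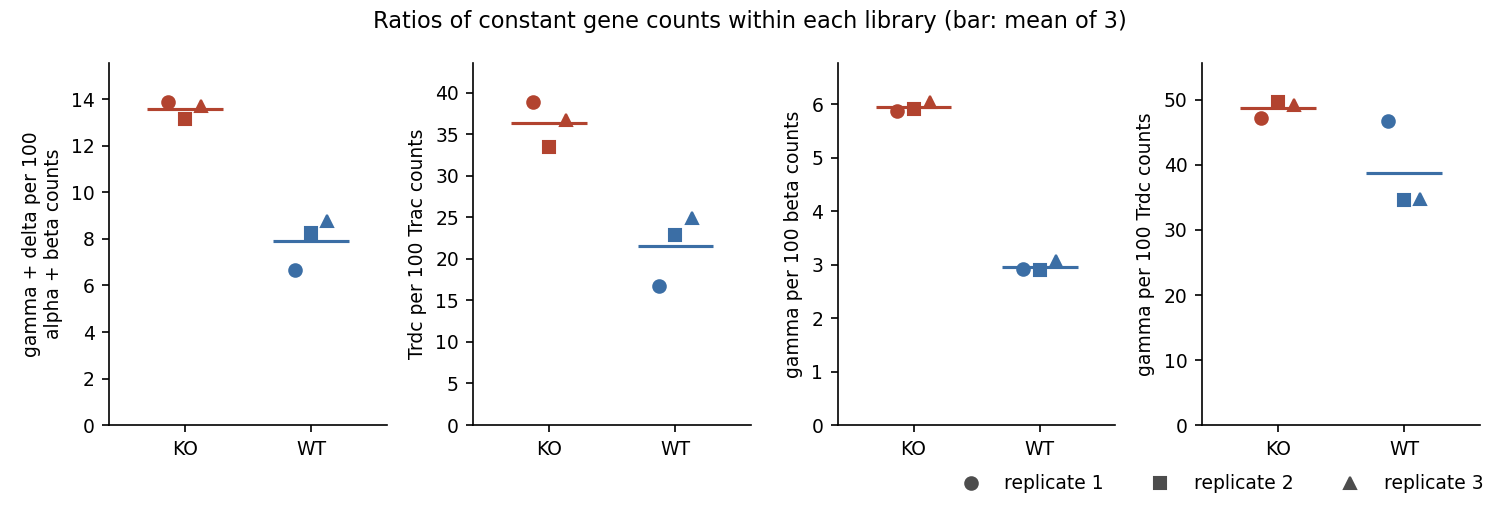
Ratios within each library, in counts per 100 counts of the comparison genes, KO left of WT, with points for libraries, shaped by replicate, and lines for the mean of 3. The ratios of gamma and delta to alpha and beta counts lie higher in every KO library than in every WT library.

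The V and J segments of the gamma and delta chains were read beside their constant genes. Of 31 gamma and delta segment rows, 28 had counts, 13 passed the filter on low counts, 2 rose in KO and none fell at the threshold in edgeR, beside 3.92% of all tested genes that rose. At an unadjusted p under 0.05 there were 5 higher and 1 lower. No share of all tested genes is given here for that p. DESeq2 called 4 higher and limma-voom 5, and neither called any lower. Of all 14681 tested genes, DESeq2 called 756 higher and limma-voom 1527. Of the 13, 10 had a fold change above 0, with a median log2 fold change of 0.43 against -0.0064 for all tested genes. Only Trgv2, Tcrg-V1, Tcrg-V4, Trdv1 and Trdv5 of the 13 belong to gamma or delta chains alone. The others are V segments that alpha chains can share, and no J segment was tested. All segment rows, shared ones included, summed to between 36.5 and 38.9 CPM in KO libraries and between 26.3 and 29.7 CPM in WT libraries.

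Trgv2, the V segment of the Tcrg-C2 cassette, had 296, 322 and 300 counts in KO libraries and 179, 174 and 195 in WT libraries. Its log2 fold change of 0.92 ± 0.12 passed (adjusted p = 0.00144, edgeR), next to 1.00 for Tcrg-C2 itself. For every 100 counts of Tcrg-C2 it had 47.4, 48.1 and 44.0 counts in KO libraries, against 48.0, 53.2 and 46.3 in WT libraries, which overlapped (p = 0.5, exact permutation test).

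Among delta segments, Trdv1 had 148, 158 and 135 counts in KO libraries and 90, 90 and 126 in WT libraries. Its log2 fold change of 0.72 ± 0.18 passed (adjusted p = 0.0381, edgeR). That call was lost without any single KO library or WT replicate 2 (adjusted p between 0.0973 and 0.165, edgeR). Trdv5 had 184, 199 and 180 counts in KO libraries and 123, 143 and 188 in WT libraries. Scaled to depth, this was 5.24, 5.22 and 4.89 CPM in KO libraries, against 3.00, 3.73 and 4.13 CPM in WT libraries. Every KO library thus lay above every WT library, as for 14.4% of all tested genes. Trdv5 did not pass (log2 fold change 0.50 ± 0.17, adjusted p = 0.105, edgeR), but did in limma-voom (adjusted p = 0.0423).

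Trdv1 and Trdv5 together had 13.8, 14.7 and 13.1 counts per 100 Trdc counts in KO libraries, against 15.2, 14.02 and 14.96 in WT libraries (p = 0.2, exact permutation test). The number of V counts for each constant count therefore overlapped between genotypes for the delta chain as for Tcrg-C2. Counts do not show whether a V segment was joined to a constant gene in the same transcript.

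Trav15-2-dv6-2, a V segment that alpha and delta chains can share, had 128, 131 and 121 counts in KO libraries and 83, 74 and 115 in WT libraries. It did not pass (log2 fold change 0.67 ± 0.19, adjusted p = 0.0607, edgeR), but did without WT replicate 1 or WT replicate 3 (adjusted p = 0.0452 and 0.0402, edgeR). It also passed in DESeq2 (adjusted p = 0.0330) and limma-voom (adjusted p = 0.0114). Trav13-4-dv7, also shared by both chains, had a log2 fold change of 0.22 ± 0.17 (adjusted p = 0.512, edgeR).

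**Figure D3:**
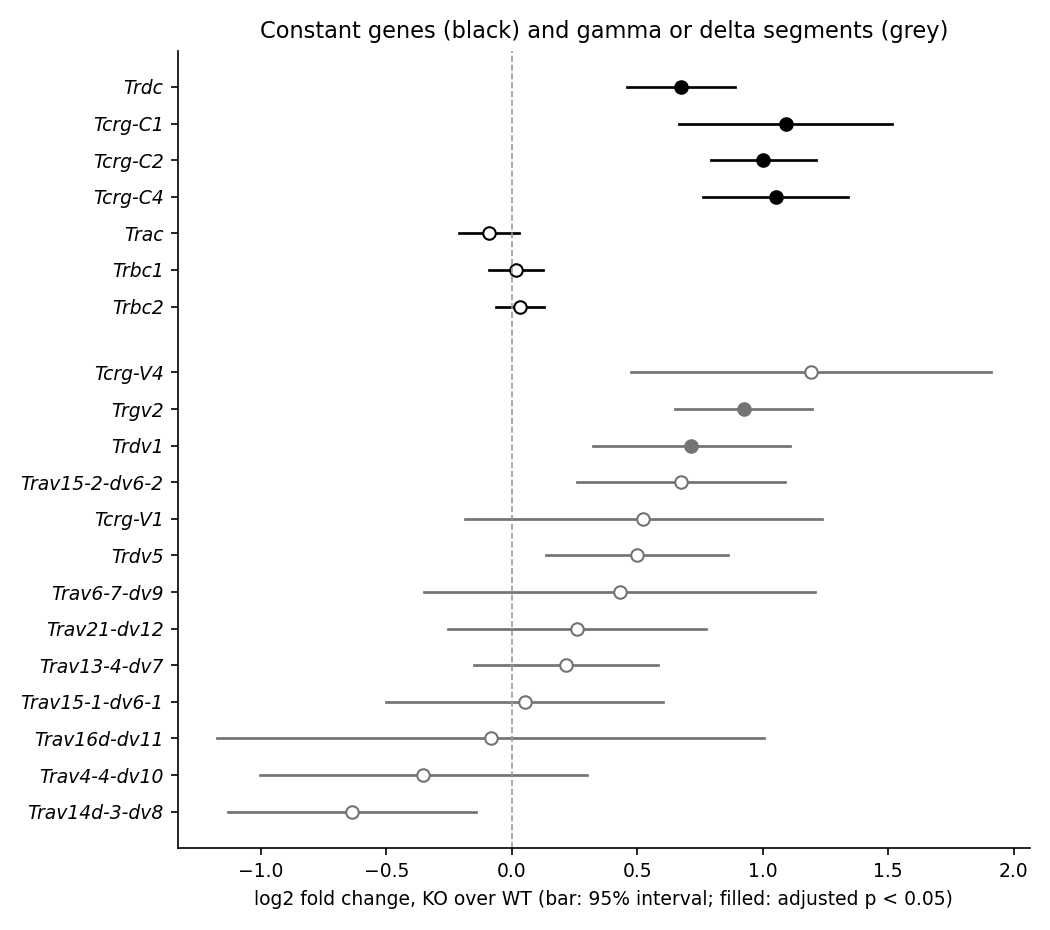
Log2 fold changes of KO over WT with 95% intervals from edgeR, for the constant genes (black) and the 13 tested gamma and delta segments (grey), with filled points for an adjusted p under 0.05. Grey rows named Trav are V segments that alpha chains can share. The 4 gamma and delta constant genes lie between 0.67 and 1.09, and the 3 alpha and beta constant genes have intervals that hold 0.

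Read in the order of the reference gene table, the gamma locus holds 15 V, J and constant genes, of which 6 were tested. The 9 others had at most 6 counts in any library. In the cassette of Tcrg-C1, Tcrg-V4 had 37, 41 and 43 counts in KO libraries and 20, 17 and 23 in WT libraries. Every KO library lay above every WT library, as for 14.4% of all tested genes. Tcrg-V4 did not pass (log2 fold change 1.19 ± 0.33, adjusted p = 0.0550, edgeR), but did without WT replicate 1 (adjusted p = 0.0443, edgeR). It also passed in DESeq2 (adjusted p = 0.0359) and limma-voom (adjusted p = 0.0157). In the cassette of Tcrg-C4, Tcrg-V1 had 71, 78 and 46 counts in KO libraries and 37, 38 and 81 in WT libraries. WT replicate 3 was its highest WT library, at 1.78 CPM, and lay above KO replicate 3, at 1.25 CPM. The groups overlapped, and Tcrg-V1 did not pass (0.52 ± 0.32, adjusted p = 0.394, edgeR). Tcrg-C4 passed and Tcrg-V1 did not, but the changes of these genes were not compared with each other. The edgeR interval of the Tcrg-V1 log2 fold change, from -0.19 to 1.24, held the 1.05 of Tcrg-C4. No difference between the constant gene and the V segment of this cassette is therefore shown.

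**Figure D4:**
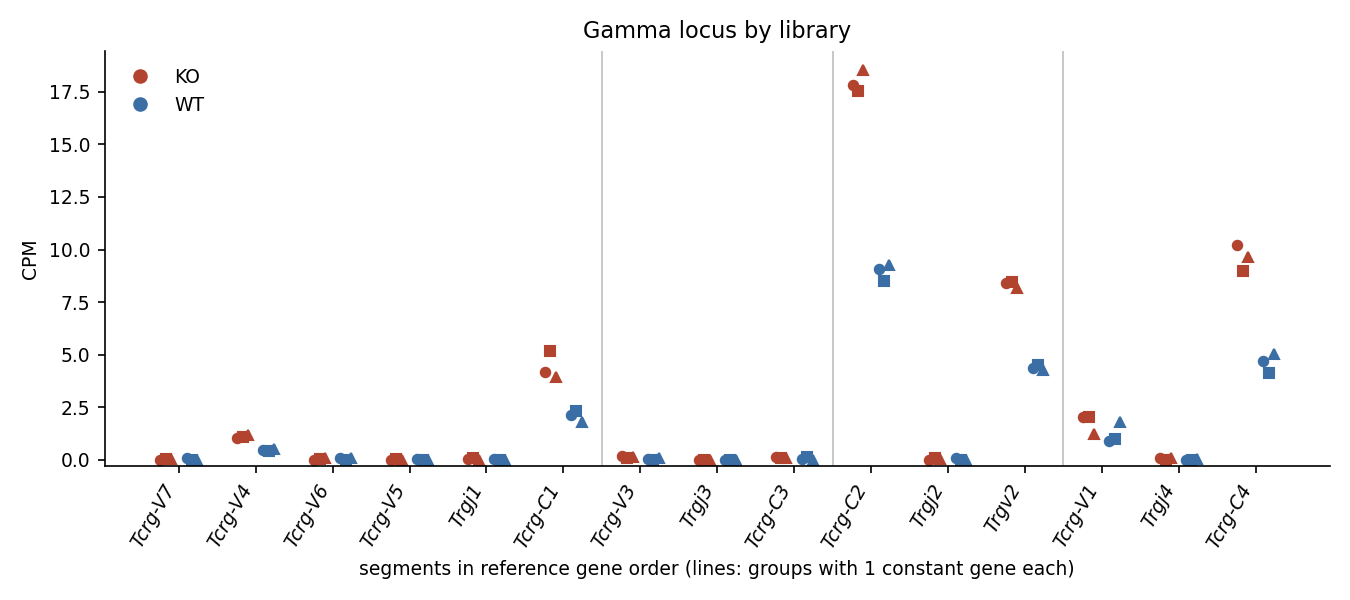
CPM in each library for the V, J and constant genes of the gamma locus in the order of the reference gene table, KO (red) left of WT (blue), point shapes marking replicates and vertical lines parting the cassettes. Counts lie mainly in Tcrg-C1, Tcrg-C2, Tcrg-C4 and Trgv2, and the 9 untested genes have at most 6 counts in any library.

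The segments of the other chains gave a different picture. None of the 51 tested alpha segments passed in edgeR. At an unadjusted p under 0.05 there were 1 higher and 2 lower, DESeq2 called none, and limma-voom called 1 higher and 1 lower. Of all 14681 tested genes, limma-voom called 1527 higher and 1335 lower. Their summed level was between 51.0 and 53.1 CPM in KO libraries and between 49.0 and 58.5 CPM in WT libraries. For every 100 counts of Trac, alpha segments had 30.2, 26.8 and 29.3 counts in KO libraries, against 28.7, 28.4 and 26.5 in WT libraries (p = 0.5, exact permutation test). The alpha V counts thus overlapped between genotypes, like Trac.

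Of 38 tested beta segments, 28 had a fold change below 0. Their median log2 fold change was -0.15, against -0.0064 for all tested genes. Only 1 fell past the threshold, beside 2.47% of all tested genes. It was Trbv29 (log2 fold change -0.47 ± 0.11, adjusted p = 0.0293, edgeR), whose call was lost without any single library other than WT replicate 1 (adjusted p between 0.0626 and 0.145, edgeR). For every 100 counts of Trbc1 and Trbc2, beta segments had 40.4, 40.7 and 40.5 counts in KO libraries, against 48.1, 45.8 and 46.3 in WT libraries. Every KO library lay below every WT library (0.867-fold, p = 0.1, exact permutation test), while Trbc1 and Trbc2 themselves overlapped.

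Genes that flank the receptor loci were read beside them. Of 18 tested flanking genes, 3 on either side of each locus in the reference table, 2 passed, both higher in KO, beside 3.92% of all tested genes. The other 16 had log2 fold changes between -0.22 for Ephb6 and 0.56 for Epdr1. The nearest tested gene after the gamma locus was Stard3nl, which acts at contacts between the endoplasmic reticulum and endosomes. It had a log2 fold change of -0.06 ± 0.05 (adjusted p = 0.575, edgeR). The nearest tested gene after the alpha and delta locus, Dad1, a subunit of the enzyme that glycosylates proteins, had -0.03 ± 0.06 (adjusted p = 0.804, edgeR).

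Gpr141, an orphan G-protein-coupled receptor, was the third tested gene after the gamma locus. It had 648, 625 and 645 counts in KO libraries and 249, 212 and 324 in WT libraries. It was 2.79-fold higher in KO (log2 fold change 1.48 ± 0.12, adjusted p = 4.05e-05, edgeR), a larger fold than that of any of the 4 gamma and delta constant genes. Gm43305 was the third tested gene after the alpha and delta locus. It had 376, 423 and 437 counts in KO libraries and 257, 287 and 347 in WT libraries (0.66 ± 0.12, adjusted p = 0.00882, edgeR). It did not pass with KO replicate 2 or KO replicate 3 left out (adjusted p = 0.0535 and 0.0677, edgeR). Both rises thus stood beyond a nearer gene, Stard3nl or Dad1, that did not pass.

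In developing mouse T cells, IL-7 acting through STAT5 opens the gamma locus to recombination. Of 7 tested genes of that pathway, 2 fell in KO and none rose, in edgeR, DESeq2 and limma-voom alike. Of the 7, 3 had a fold change above 0 and 4 below, with a median log2 fold change of -0.0061 against -0.0064 for all tested genes. Of all 14681 tested genes, 362 fell in edgeR (2.47%), 569 in DESeq2 and 1335 in limma-voom. Stat5a had a log2 fold change of -0.21 ± 0.04 (adjusted p = 0.00918, edgeR) and Stat5b of -0.18 ± 0.05 (adjusted p = 0.0479, edgeR). Both calls were lost without any single KO library or WT replicate 2 (adjusted p between 0.0503 and 0.180, edgeR), and that of Stat5b also with upper-quartile factors (adjusted p = 0.0562, edgeR). Il7r, which encodes the alpha chain of the IL-7 receptor, had -0.13 ± 0.14 (adjusted p = 0.675, edgeR) and was 0.09 without WT replicate 1.

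Of 14 transcription factors known to act at receptor loci or in the choice of T cell lineage, 13 had a fold change below 0. Their median log2 fold change was -0.07, against -0.0064 for all tested genes. Only 1 fell past the threshold, beside 2.47% of all tested genes. It was Bcl11b, which maintains T cell identity, at 72.6, 77.6 and 86.1 CPM in KO libraries, against 108, 101 and 101 CPM in WT libraries. All KO libraries lay below all WT libraries, where 26.8% of all tested genes had no overlap in either direction. Bcl11b had a log2 fold change of -0.39 ± 0.07 (adjusted p = 0.00617, edgeR). Without KO replicate 2 its adjusted p was 0.0501 in edgeR. The genes of receptor recombination and of the pre-T-cell receptor were nearly silent: Rag2 and Ptcra had 0 counts in every library, and Rag1 and Dntt had at most 8.

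None of the 7 tested CD3 and coreceptor genes passed in edgeR. At an unadjusted p under 0.05 there were 2 higher and 1 lower, while DESeq2 called 1 higher and 1 lower and limma-voom 2 higher and 1 lower. Of all 14681 tested genes, DESeq2 called 756 higher and 569 lower, and limma-voom 1527 higher and 1335 lower. Cd4, the coreceptor of helper T cells, had 217, 235 and 224 CPM in KO libraries, against 342, 269 and 259 CPM in WT libraries. All KO libraries lay below all WT libraries, where 26.8% of all tested genes had no overlap in either direction. Cd4 had a log2 fold change of -0.36 ± 0.09 (adjusted p = 0.0504, edgeR), just outside the threshold. It passed in edgeR without WT replicate 1 (adjusted p = 1.34e-04) or WT replicate 3 (adjusted p = 0.0146), with DESeq2 size factors, library totals, no filter or the stricter filter (adjusted p at most 0.0460), and in DESeq2 (adjusted p = 0.00238) and limma-voom (adjusted p = 0.00154). Cd3d, a signalling chain of both kinds of receptor, had -0.01 ± 0.06 and was 0.04 without WT replicate 1. Cd247, the zeta chain, had 0.20 ± 0.06 (adjusted p = 0.10, edgeR) and passed without WT replicate 1 (adjusted p = 1.32e-04, edgeR).

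Markers of gamma-delta T cells and of other cells that a culture could hold were summed beside these results. In each list, 1 or 2 called genes among so few tested is a description only. Of 10 genes typical of gamma-delta T cells, 7 were tested and 1 rose, beside 3.92% of all tested genes. Nrgn, a calmodulin-binding protein, had 79, 83 and 106 counts in KO libraries and 28, 35 and 48 in WT libraries. Its log2 fold change was 1.46 ± 0.26 (adjusted p = 0.00747, edgeR), and it did not pass with KO replicate 3 left out (adjusted p = 0.0590, edgeR). The other 6 tested genes did not pass in edgeR. Tox2 had a log2 fold change of 0.40, Sox4 of -0.09, 5830411N06Rik of -0.10, Sox13 of -0.38, Etv5 of -0.26 and Blk of -1.85. DESeq2 and limma-voom called Etv5 lower (adjusted p = 0.0257 and 0.0059), and limma-voom called Blk lower as well (adjusted p = 0.0356). In edgeR Etv5 also passed without WT replicate 1 or WT replicate 3 (adjusted p = 0.0253 and 0.0115). Zbtb16, the factor of innate-like gamma-delta cells, had at most 4 counts in any library. The list summed to between 62.8 and 67.4 CPM in KO libraries and between 68.4 and 76.3 CPM in WT libraries, of which Etv5 alone gave 49.0 ± 1.24 CPM in KO and 58.7 ± 5.49 CPM in WT (SD, n = 3 each). The 9 genes without Etv5 summed to between 13.8 and 17.1 CPM in KO libraries and between 12.4 and 16.3 CPM in WT libraries, which overlapped.

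For CD8 T cells, Cd8a and Cd8b1 summed to between 12.4 and 16.6 CPM in KO libraries and between 14.1 and 16.0 CPM in WT libraries, and neither passed in edgeR at an adjusted or unadjusted p under 0.05, in DESeq2 or in limma-voom. Of 8 natural killer and innate lymphoid genes, 3 were tested and 1 rose, beside 3.92% of all tested genes, namely Klrk1, the NKG2D receptor (log2 fold change 0.92 ± 0.13, adjusted p = 0.00185, edgeR). All 3 tested genes had a fold change above 0, with a median log2 fold change of 0.55 against -0.0064 for all tested genes. That list summed to between 35.6 and 43.6 CPM in KO libraries and between 25.8 and 33.2 CPM in WT libraries. Its members Ncr1, Klrb1c and Klra8 had 0 counts in every library.

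Of 9 B cell genes, 4 were tested and 2 rose, beside 3.92% of all tested genes, namely Ighm, the constant gene of the IgM heavy chain (0.65 ± 0.09, adjusted p = 0.00213, edgeR), and Cd79b (0.74 ± 0.19, adjusted p = 0.0391, edgeR). The call of Cd79b was lost without any single library other than WT replicate 1 (adjusted p between 0.0766 and 0.162, edgeR). The list summed to between 90.7 and 95.7 CPM in KO libraries and between 53.6 and 68.5 CPM in WT libraries. Of the 4 tested genes, 3 had a fold change above 0, with a median log2 fold change of 0.51 against -0.0064 for all tested genes. Among members of the list, Ms4a1 had at most 4 counts, and Pax5 had 0 counts in every KO library and 16, 8 and 2 in WT libraries.

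Of 6 myeloid genes, 4 were tested and 1 rose, beside 3.92% of all tested genes, namely Fcer1g, the common gamma chain of Fc receptors (2.46 ± 0.28, adjusted p = 4.49e-04, edgeR). All 4 tested genes had a fold change above 0, with a median log2 fold change of 0.85 against -0.0064 for all tested genes. That list summed to between 11.5 and 12.6 CPM in KO libraries and between 5.73 and 6.68 CPM in WT libraries, with Csf1r at most 3 counts. The part of these cell types in the rise of the gamma and delta constant genes was not tested.

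Among 9682 genes with a mean of at least 5 CPM, the 5 outside the members whose level followed the mean profile of the 4 gamma and delta genes most closely over the 6 libraries were Trgv2, Ifitm3, Il23a, Lta and Uchl1. Likeness was the root mean square difference of log2 CPM (prior count of 2) centred on each gene's own mean, which was 0.039 for Trgv2, 0.053 for Ifitm3, 0.055 for Il23a, 0.065 for Lta and 0.069 for Uchl1. Only Trgv2 is a receptor gene. Il23a, the p19 subunit of IL-23, had 272, 264 and 248 CPM in KO libraries, against 130, 128 and 127 CPM in WT libraries. Lta, which encodes lymphotoxin alpha, had 205, 224 and 205 CPM in KO libraries, against 107, 103 and 102 CPM in WT libraries. As the 6 libraries fall into the same groups that were compared above, this likeness adds no test.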

How the data were processed

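The authors deposited raw counts of reads over GENCODE vM33 exons summed by gene, from featureCounts 2.0.1, per the file headers. The headers of 5 libraries set no strand option and no counting of multi-mapping reads, and the line for KO replicate 1 shows no option names. Without strand, reads of a gene and an antisense partner cannot be told apart. For aligner and genome build, the sources used here name none. In the record of units the deposited column of WT replicate 2 is entered as other, a value with no fixed unit, although it holds whole raw counts like the rest. The table gives no gene length, so levels of different genes are not compared per length. Low counts were more often even: 65.6% to 67.7% of counts from 1 to 20, against 48.8% to 50.9% of counts of 1000 or more, so depth in fragments may be lower than in counts. The lowest count of a member, 81, has an exact 95% Poisson interval from 64.3 to 101, which covers counting error only.

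Groups came from titles and genotype labels. IDs were matched to symbols without version (51948 of 56941, 91.2%). Rows without a symbol held 0.181% to 0.204% of counts and were tested under their ID. The GRCm38.p6 RefSeq gene table gave only gene order. The genotypes were compared in edgeR 4.0.16 under R 4.3.3: default filter on low counts, TMM factors (0.984 to 1.016), robust quasi-likelihood F-test, and Benjamini-Hochberg adjustment over 14681 genes with a threshold of 0.05. CPM were scaled by TMM and are given with their SD (n = 3), log2 fold changes with their SE. Ratios were compared with two-sided exact permutation tests, adjusted over 12 ratios. No label or header names a batch. All pairs of libraries differed beyond sampling noise, with a chi-square of at least 4.19 per degree of freedom. No label says that a shared replicate number pairs a KO with a WT library, and the main fit used no pairing.

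The members and lists were chosen with earlier results of these data known. Genes were named by a rule: all members, called genes of each list or, where none passed, the 3 with the highest CPM, the 5 most counted gamma or delta segments, flanking genes, and the 5 nearest profiles. Of alpha segments, only sums are given, and flanking genes are summarised. Members named beyond that, to describe a marker list, were chosen after their values were seen. Some genes are not reported here and were left out of the lists. Alternatives were other scalings and filters, DESeq2 1.42.0, limma 3.58.1 (voom), a replicate block and each library left out in turn.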

Additional observations from a re-analysis of the deposited data

How the results depend on the processing

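The rise of Trdc, Tcrg-C2 and Tcrg-C4 passed in all 14 alternatives, with log2 fold changes of 0.55 to 0.77, 0.97 to 1.04 and 0.98 to 1.13. Tcrg-C1 passed in 12 of the 13 alternatives that tested it (0.96 to 1.18), failing without KO replicate 2, and was removed by a filter of 5 CPM in 3 libraries. None of Trac (-0.13 to -0.05), Trbc1 (-0.01 to 0.06) or Trbc2 (0.00 to 0.04) passed in any of the 14. The log2 difference of the gamma-delta to alpha-beta ratio, 0.79, was 0.67 to 0.87 with a library left out, 1.03 without Trdc and 0.73 without Tcrg-C1 and Tcrg-C2. Calls over all genes, 938, numbered 1568 with no filter on low counts, 2862 with limma-voom, and 295 to 2961 with a library left out. Of all 14681 tested genes, DESeq2 called 756 higher and 569 lower, and limma-voom 1527 higher and 1335 lower. DESeq2 and limma-voom each called all 6 Th17 genes lower (3 in edgeR), 4 and 5 gamma or delta segments higher (2), 2 and 3 beta segments lower (1), and 2 and 2 locus factors lower (1). With the replicate number as a block they numbered 671, the ratio difference was 0.79, the 4 gamma and delta calls held, and those of Trdv1, Stat5b and Trbv29 were lost (adjusted p = 0.0783, 0.0898 and 0.0575, edgeR). Same-numbered libraries did not deviate together (correlations -0.040, -0.028 and 0.0009). No label says whether the numbers mark a pairing, and these correlations cannot exclude one. Signs turned, with no call on either side, for 8 genes. With library totals Trbc1 was -0.012. With limma-voom Il7r was 0.041, Cd3d 0.045 and Cd8a -0.10. With a library left out, Trbc1 was -0.0016 to 0.056, Il7r -0.22 to 0.092, Dad1 -0.076 to 0.020, Cd3d -0.054 to 0.045, Cd3e -0.11 to 0.0074, Cd8a -0.052 to 0.24, Cd8b1 -0.15 to 0.061 and 5830411N06Rik -0.48 to 0.11. The cause was not tested. Over the named genes and alternatives, 603 values kept direction and side of the threshold, 38 lost their call, 28 gained it and 16 changed sign. The ratio per kilobase was not run, as the table gives no length. Depth limits Tcrg-C1 and the least counted segments most.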
